A study of Mus musculus with 8 samples.

Results

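Retinoid genes make, carry, bind and clear retinoic acid. The 9 followed here were the genes named Rbp4, Stra6, Rdh10, Aldh1a1, Aldh1a2, Aldh1a3, Crabp1, Crabp2 and Cyp26b1 in a table of read counts for 24091 genes, taken by symbol. The rule that picks them uses no measured value, but the genes were chosen with earlier results of these data known. Counts came from pancreatic islets of 6-week-old C57BL/6 mice, with 4 mutant libraries (genotype Ngn3-Cre, itgb1-/-) and 4 control libraries (labelled wild-type). The study's methods describe littermate controls for tissue staining and do not say whether the sequenced controls were littermates. The study asked what islet cells lose when the integrin subunit Itgb1 is removed during development, and the comparison of genotypes below asks which of these genes differed in the adult islet. Ngn3-Cre acts in endocrine progenitors, so vessel, mesenchymal, duct and immune cells of a mutant islet keep Itgb1, and RNA of the whole islet mixes both. Whether the controls carried the Cre or the floxed alleles is not given in the sources used here. Each RNA came from 10 to 30 hand-picked islets that had recovered overnight in medium after collagenase digestion, so the levels are those of islets after culture and not of islets in the pancreas. The labels do not say whether each library was a separate mouse, and the study's list of replicates counts 3 animals per genotype, so p-values measure only the spread between these libraries.

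Vitamin A reaches tissues as retinol bound to the plasma carrier Rbp4, and the membrane receptor Stra6 takes it up. Retinol dehydrogenases such as Rdh10 oxidise retinol to retinaldehyde, the Aldh1a enzymes oxidise retinaldehyde to retinoic acid, Crabp1 and Crabp2 bind the acid in the cytoplasm, and Cyp26 enzymes hydroxylate it and end its action. Retinoic acid binds nuclear receptors of the Rar family, which sit with Rxr partners on paired half-sites in the DNA of their targets. In the embryo the acid made by Aldh1a2 in the mesenchyme is needed for the pancreas to form. In the mouse islet, Rbp4 is a marker of delta cells and Aldh1a3 is known as a marker of beta cells that have lost their mature identity.

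Upstream sequence is shown for the 2 genes whose windows held a retinoic acid receptor half-site and for Cyp26b1, an enzyme that is induced by retinoic acid in many tissues. Sequences are those of RefSeq (GRCm38.p6), 5′ to 3′ on the gene's own strand, 250 bases up to the annotated start. Capitals mark a half-site, which is written here as TGACCC because GGGTCA was read on the opposite strand.
Rbp4, chromosome 19, minus strand, chr19:38125322-38125571: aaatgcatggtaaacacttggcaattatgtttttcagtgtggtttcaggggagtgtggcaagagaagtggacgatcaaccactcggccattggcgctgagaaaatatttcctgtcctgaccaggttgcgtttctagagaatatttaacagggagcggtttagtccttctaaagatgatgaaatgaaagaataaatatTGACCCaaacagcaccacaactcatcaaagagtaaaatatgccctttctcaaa
Rbp4, second annotated start, chromosome 19, minus strand, chr19:38124812-38125061: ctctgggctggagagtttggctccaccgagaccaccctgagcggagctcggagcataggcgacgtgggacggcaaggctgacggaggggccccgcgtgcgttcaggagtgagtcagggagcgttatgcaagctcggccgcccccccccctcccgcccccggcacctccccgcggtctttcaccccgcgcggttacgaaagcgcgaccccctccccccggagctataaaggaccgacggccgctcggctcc
Aldh1a1, chromosome 19, plus strand, chr19:20601718-20601967: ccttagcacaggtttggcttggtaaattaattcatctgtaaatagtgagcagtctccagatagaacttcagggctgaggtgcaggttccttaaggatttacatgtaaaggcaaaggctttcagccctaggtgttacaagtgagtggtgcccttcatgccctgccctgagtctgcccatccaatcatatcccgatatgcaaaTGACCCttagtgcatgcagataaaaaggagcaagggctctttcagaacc
Cyp26b1, chromosome 6, minus strand, chr6:84593811-84594060: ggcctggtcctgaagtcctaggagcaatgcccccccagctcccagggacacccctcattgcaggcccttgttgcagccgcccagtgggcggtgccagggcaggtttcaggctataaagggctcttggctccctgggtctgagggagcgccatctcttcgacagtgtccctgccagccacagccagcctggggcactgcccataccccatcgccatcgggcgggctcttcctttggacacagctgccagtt
The half-sites were searched on both strands and none contains another. They were AGGTCA, which 14% of all 32851 windows of this length held, AGTTCA, which 11.8% held, GGGTCA, which 11.6% held, and GGTTCA, which 8.85% held. RefSeq windows were matched for 6 of the 9 genes, 11 windows in all, and 2 windows held a half-site. Aldh1a1 has another annotated start, whose window (chr19:20492333-20492582) held no half-site and is not shown. Of all windows, 38.6% held at least 1 of the 4. Direct repeats of the half-sites with a gap of 1, 2 or 5 bases were present in 0.426% of all windows and in none of the 11. The matches describe letters in a window of 250 bases and no binding was measured.

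Between 35.1 and 67.6 M counts per library were assigned to genes (M for 10 to the power of 6). Mutant 3, control 2 and control 3 each held over 50 M counts, and the other 5 libraries held 35.1 to 41.0 M. Acinar cell enzymes, an exocrine trace, summed to 84.2 to 723 CPM in mutant libraries and 29.8 to 10311 CPM in controls, with 3316 and 10311 CPM in controls 2 and 3 (counts per M of the library total after TMM scaling). Results are therefore given over all 8 libraries, with a term for this division, and within the 5 smaller libraries, where the genotypes were 3 mutant and 2 control. The study's methods mention a correction for batch effects, but the sources used here do not say which library was in which batch, so no such term could be fitted and the library sets are not those batches by any label. Itgb1, the targeted gene, had 266, 225, 193 and 255 CPM in mutants 1 to 4, against 422, 432, 408 and 315 CPM in controls 1 to 4, without overlap, a 0.596-fold ratio of means, and no library went against its label.

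Per kilobase of transcript, Rbp4 was by far the highest of the 9 genes. It averaged 91.5 RPKM (CPM per kilobase) in mutant libraries and 176 RPKM in controls. Rdh10 followed with 8.57 RPKM in mutants and 7.35 RPKM in controls, then Cyp26b1 with 5.47 and 3.97 RPKM in mutants and controls, Aldh1a3 with 3.80 and 3.93 RPKM, and Aldh1a1 with 3.32 and 1.35 RPKM. Aldh1a2 averaged 0.687 RPKM in mutants and 0.281 RPKM in controls. Crabp1, Crabp2 and Stra6 each averaged under 0.23 RPKM in both genotypes. In each genotype the lowest Rbp4 library lay above every library of Rdh10, whereas the ranges of Rdh10, Cyp26b1 and Aldh1a3 overlapped, as did those of Aldh1a3 and Aldh1a1. In mutants Aldh1a2 lay below every Aldh1a1 value and above every value of the 3 scarce genes. In controls its range overlapped that of Aldh1a1 and those of the scarce genes.

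None of the 9 genes passed the test over all 8 libraries. A gene was called where edgeR's quasi-likelihood test gave a Benjamini-Hochberg adjusted p below 0.05 and the fold exceeded 2. Of the 9, 7 passed the filter on low counts and 0 were called, which equals the background of 0 of 15233 genes, or 0%. The smallest adjusted p of any gene was 0.118. At an unadjusted p below 0.05, 1 of the 7 was higher in mutants (Aldh1a2) and 1 was lower (Rbp4), where 6.4% of all genes tested were higher and 6.89% were lower. The median log2 fold change of the 7 was 0.22, beside 0.0015 over all genes tested. DESeq2, the other tool, called 187 genes (1.23%, or 2.05% at any fold) and none of the 7.

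**Figure D1:**
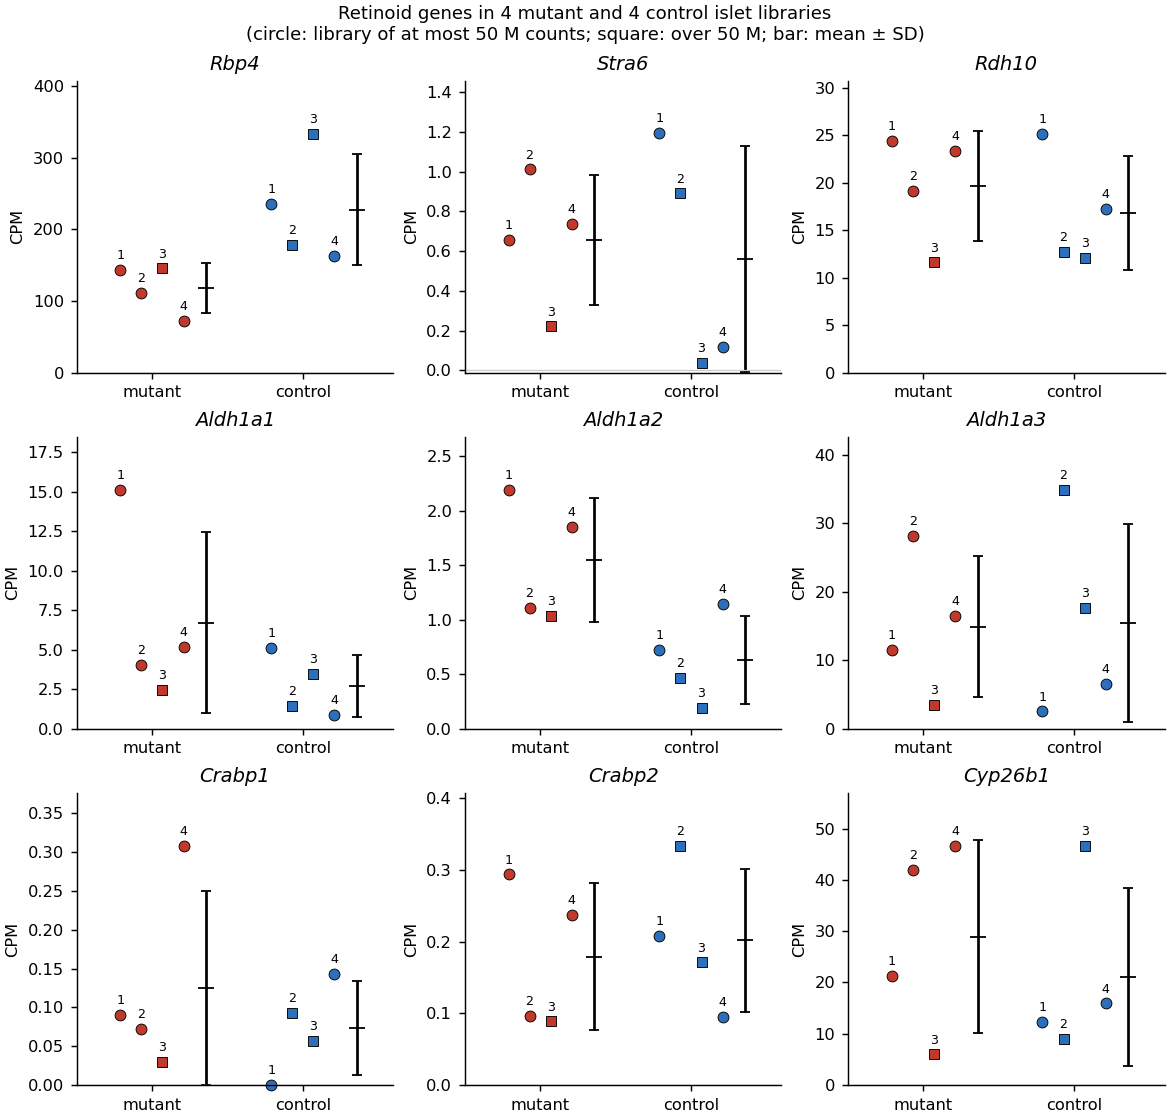
Each panel plots the level of 1 retinoid gene in CPM on a linear axis, mutant libraries at the left and controls at the right, with the replicate number above each point, circles for libraries of at most 50 M counts, squares for the 3 larger ones, and bars for the mean ± SD (n = 4 each). Rbp4 is the one gene of the 9 whose mutant libraries, 72.1 to 145 CPM, all lie below the controls, 163 to 333 CPM.

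Rbp4, the retinol carrier of plasma, was lower in mutant islets in every pairing of libraries. It had 143, 111, 145 and 72.1 CPM in mutants 1 to 4, against 235, 179, 333 and 163 CPM in controls 1 to 4. The highest mutant, 145 CPM, lay below the lowest control, 163 CPM. Its log2 fold change was -0.95 (SE 0.29), 0.519-fold by the means, with an unadjusted p of 0.0098 and an adjusted p of 0.353 by edgeR's quasi-likelihood test, so it was not called. DESeq2 gave an adjusted p of 0.0649. The exact two-sided permutation test over the 8 libraries gave p = 0.0286, the smallest that 4 against 4 libraries allow. This separation of all 4 mutants below all 4 controls was seen for 3.8% of all genes tested. The difference had a like size within each set of libraries. It was -0.87 (SE 0.30, adjusted p = 0.169 by edgeR) in the 5 smaller libraries, where the 3 mutants again lay below the 2 controls, as for 21.3% of all genes there, and -0.75 in the 3 larger, where 1 mutant stood against 2 controls and no test was made. With the term for the division, a fit that called 0.0263% of all genes and none of the 7, it was -0.85 (SE 0.28, adjusted p = 0.262), and DESeq2 with the same term gave an adjusted p of 0.0486 at a fold under 2, where it called 1.76% of all genes. The gene spans chr19:38116620-38125321 on the minus strand, and its span overlaps that of Gm38437. Whether these genes share exons was not checked, and the counting as described did not use strand.

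Rbp4 moved beside the delta cell hormone Sst. Sst had 1622, 971, 2239 and 817 CPM in mutants 1 to 4, against 1843, 2299, 5163 and 1632 CPM in controls 1 to 4, and the order of the libraries by Sst was close to their order by Rbp4. For every 100 counts of Sst there were 8.83, 11.5, 6.49 and 8.82 counts of Rbp4 in mutants 1 to 4, against 12.7, 7.78, 6.46 and 9.97 in controls 1 to 4. This ratio averaged 8.90 ± 2.03 in mutants and 9.24 ± 2.75 in controls (SD, n = 4 each), with an exact permutation p of 0.971. Divided instead by Hhex, a transcription factor of delta cells, Rbp4 averaged 9.67 ± 3.44 in mutants and 14.6 ± 3.44 in controls, with an exact permutation p of 0.143. These were 2 of 5 ratios and sums tested in this way, and the adjusted p-values over the 5 were 0.971 for Sst and 0.715 for Hhex. Of the 7 delta and PP cell markers listed, Rbp4 among them, all 7 had a lower mean in mutants and 2 had an unadjusted p below 0.05. The sum of the other 6 was 2798 to 9652 CPM in mutants and 5751 to 9693 CPM in controls, and none of the 6 was at 0. Over all 8 libraries lower means were not particular to delta markers, since 10 of 10 alpha cell markers and 12 of 12 beta cell markers also had a lower mean in mutants. Of these, 8 alpha and 6 beta markers had an unadjusted p below 0.05, where 6.89% of all genes tested were lower. In the 5 smaller libraries the median log2 fold change was -0.62 for the delta and PP markers, -0.54 for alpha and -0.094 for beta markers. There Ins1, Ins2, Iapp and G6pc2 of the beta list were higher in mutants, at 0.23, 0.28, 0.16 and 0.67. Alpha markers summed to 10192 to 19808 CPM in mutants and 18912 to 88967 CPM in controls. Beta markers summed to 31998 to 49836 CPM in mutants, against 32835 and 34492 CPM in controls 1 and 4 and 121626 and 174453 CPM in controls 2 and 3. The part of these cell types in the Rbp4 values was not tested. In RNA of whole islets, fewer cells of a type and less RNA per cell cannot be told apart.

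**Figure D2:**
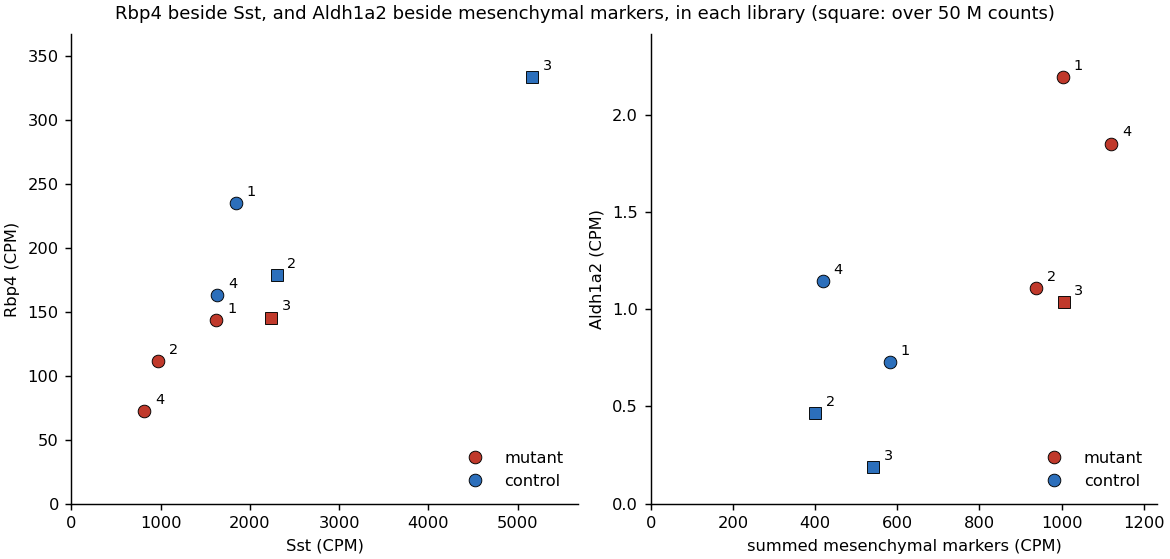
The left panel plots Rbp4 against Sst in each library and the right panel plots Aldh1a2 against the sum of 12 mesenchymal markers, all in CPM on linear axes that start at 0, with red for mutants, blue for controls, squares for the 3 libraries over 50 M counts and the replicate number beside each point. Mutants 1, 2 and 4 lie below every control in both Sst and Rbp4 on the left, and all mutants lie at higher marker sums on the right, 937 to 1121 CPM against 400 to 582 CPM in controls.

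Stra6, the membrane receptor for retinol-bound Rbp4, was near the limit of the counts. It had 0.656, 1.01, 0.222 and 0.735 CPM in mutants, against 1.19, 0.891, 0.038 and 0.119 CPM in controls, and the control values alone spanned 31.4-fold. With a log2 fold change of 0.22 and an SE of 0.91 (adjusted p = 0.927, edgeR), both directions lay well within the error. Its span on chromosome 9 overlaps that of Ccdc33, and whether these genes share exons was not checked.

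Rdh10, the dehydrogenase that makes retinaldehyde from retinol, varied least. It had 24.4, 19.2, 11.6 and 23.3 CPM in mutants, against 25.2, 12.7, 12.1 and 17.3 CPM in controls. The 3 larger libraries, mutant 3 and controls 2 and 3, held the 3 lowest values, 11.6 to 12.7 CPM, and the 5 smaller libraries held 17.3 to 25.2 CPM in both genotypes. Between genotypes the log2 fold change was 0.22 (SE 0.30, adjusted p = 0.745, edgeR) over all 8 libraries and 0.066 (SE 0.19, adjusted p = 0.857) in the 5 smaller.

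The 3 Aldh1a enzymes, which make retinoic acid from retinaldehyde, showed no difference in their sum beyond the spread between libraries. Their summed level per kilobase was 11.4, 9.66, 2.58 and 7.58 RPKM in mutants 1 to 4, against 3.52, 9.81, 6.31 and 2.62 RPKM in controls 1 to 4. It averaged 7.81 ± 3.82 RPKM in mutants and 5.56 ± 3.24 RPKM in controls (SD, n = 4 each), with an exact permutation p of 0.486. Aldh1a3 took 25.8%, 74.2%, 34.8% and 55.4% of the sum in mutants 1 to 4, against 18.4%, 90.7%, 71.4% and 63.9% in controls 1 to 4. The enzyme with the most transcript was Aldh1a1 in mutants 1 and 3 and in control 1, and Aldh1a3 in the other 5 libraries, so each genotype held libraries of both kinds.

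**Figure D3:**
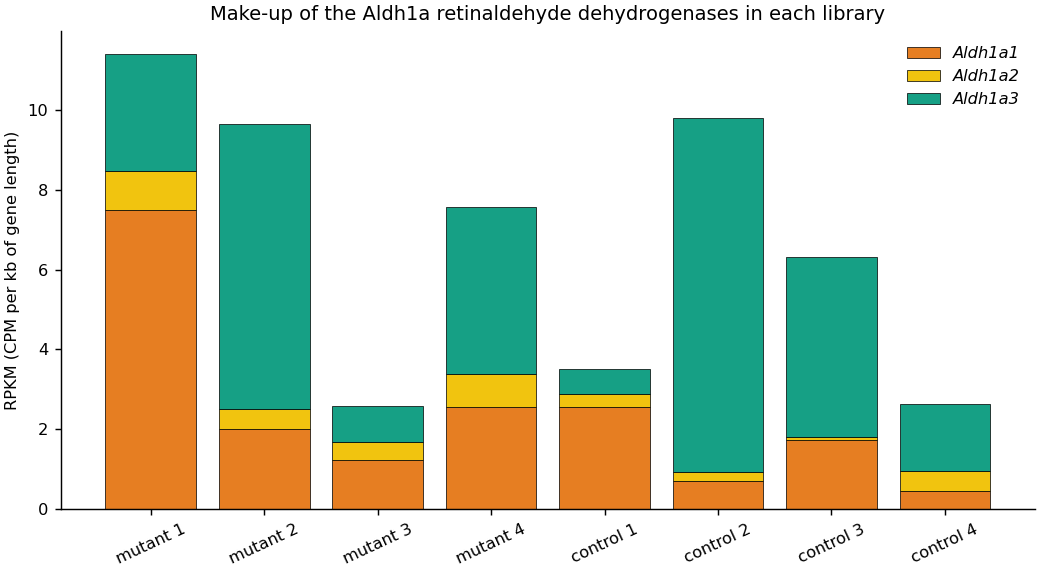
Stacked bars give the level of Aldh1a1, Aldh1a2 and Aldh1a3 in RPKM (CPM per kilobase of gene length) in each of the 8 libraries, mutants at the left and controls at the right. The sums run from 2.58 to 11.4 RPKM in mutants and from 2.62 to 9.81 RPKM in controls, and Aldh1a2 has the largest share in none of the 8.

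Aldh1a3 had the widest disagreement between library sets of the 3 enzymes. It had 11.6, 28.2, 3.52 and 16.5 CPM in mutants 1 to 4, against 2.54, 34.9, 17.7 and 6.58 CPM in controls 1 to 4. Both the highest and the lowest value were controls, 34.9 CPM in control 2 and 2.54 CPM in control 1. Over all 8 libraries the log2 fold change was -0.05 (SE 0.80, adjusted p = 0.981, edgeR). The study itself reports Aldh1a3 as significantly up-regulated in the mutant islets, from a fit that corrected for batch, and also cites quantitative PCR. In the 5 smaller libraries the 3 mutants, at 11.6 to 28.2 CPM, all lay above the 2 controls, at 2.54 and 6.58 CPM, and the log2 fold change was 2.03 (SE 0.54, unadjusted p = 0.0105, adjusted p = 0.124, edgeR). DESeq2 on the same 5 libraries gave an adjusted p of 0.0289 and called 2.66% of all genes, against 0.0641% by edgeR. In the 3 larger libraries mutant 3, at 3.52 CPM, lay below controls 2 and 3, at 34.9 and 17.7 CPM, a log2 difference of -2.81 with no test. The interaction of genotype and library set was -4.94 (SE 1.03, adjusted p = 0.0349, edgeR), and it rests on mutant 3 as the one mutant of the larger set. Such an interaction passed an adjusted p of 0.05 for 10.9% of all genes tested. A gene higher in every smaller mutant library and lower in the larger one was likewise not rare, with 7.78% of all genes tested showing that order. Of the 7 genes tested, 2 (Aldh1a3 and Cyp26b1) had all smaller mutants above both controls, a pattern of 21.8% of all genes in these 5 libraries. The exact permutation test of 3 against 2 libraries cannot give a p under 0.1.

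Aldh1a1, a cytosolic enzyme of the family, was led by a single library. It had 15.1, 4.04, 2.47 and 5.17 CPM in mutants 1 to 4, against 5.14, 1.43, 3.48 and 0.882 CPM in controls 1 to 4. Mutant 1 stood far above the other 7 libraries, and the ranges of the genotypes overlapped. The log2 fold change was 1.29 (SE 0.69, adjusted p = 0.427, edgeR), and without mutant 1 it was the smallest of the values with 1 library left out, 0.51. Of the 4934 windows of 50 bases in its transcripts, 151 (3.06%) occur also in Aldh1a7, a neighbouring copy, which had 0 to 0.295 CPM in mutants and 0.0778 to 0.646 CPM in controls. In mutant 2 Aldh1a7 had 0 counts, which allows up to 0.0722 CPM at 3 counts, counting error only.

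Aldh1a2, the enzyme of embryonic mesenchyme, was the other gene past an unadjusted p of 0.05. It had 2.19, 1.11, 1.03 and 1.85 CPM in mutants 1 to 4, against 0.727, 0.464, 0.190 and 1.14 CPM in controls 1 to 4. Mutants 2 and 3 lay just below control 4, so the genotypes overlapped. The log2 fold change was 1.30 (SE 0.53, unadjusted p = 0.0392, adjusted p = 0.363, edgeR), the adjusted p by DESeq2 was 0.212, and the exact permutation p was 0.0857. In the 5 smaller libraries it was 0.87 (SE 0.39, adjusted p = 0.254), with the 3 mutants at 1.11 to 2.19 CPM and the 2 controls at 0.727 and 1.14 CPM. Mesenchymal markers were also higher in mutants. Of the 12 listed, 10 were higher at an unadjusted p below 0.05, beside 6.4% of all genes tested. None was lower at that p, none was at 0, and their sum was 937 to 1121 CPM in mutants against 400 to 582 CPM in controls. How Aldh1a2 ran beside these markers within a genotype depended on the measure. Mutants 1 and 3 had marker sums of 1003 and 1005 CPM but Aldh1a2 at 2.19 and 1.03 CPM. The mean log2 level of the markers was 5.95, 5.45, 5.30 and 5.75 in mutants 1 to 4, the same order as Aldh1a2. In controls 1 to 4 it was 4.74, 3.73, 4.37 and 4.32, and the orders differed. The part of mesenchymal cells in the Aldh1a2 values was not tested. For every 1000 CPM of these markers there were 2.19, 1.18, 1.03 and 1.65 CPM of Aldh1a2 in mutants 1 to 4, against 1.25, 1.16, 0.351 and 2.73 CPM in controls 1 to 4. That ratio averaged 1.51 ± 0.522 in mutants and 1.37 ± 0.993 in controls (SD, n = 4 each), with an exact permutation p of 0.629. Of the 5 markers of mesothelium, another cell type known for Aldh1a2, Msln held nearly all of the summed level, with a mean of 23.5 CPM in mutants and 41.1 CPM in controls. The scarce Upk3b, Wt1 and Lrrn4 had means on the other side, 0.122, 0.315 and 0.103 CPM in mutants against 0.0184, 0.0682 and 0.0201 CPM in controls, and Upk1b was close to 0 in both, so the list gave no common direction. Duct markers summed to 1312 to 3344 CPM in mutants and 683 to 1915 CPM in controls, and their part in the Aldh1a1 and Aldh1a2 values was not tested. Over the 8 libraries, Pearson's r between Aldh1a2 and the mean log2 marker level was 0.84 for duct and 0.80 for mesenchymal markers. It was -0.95 for alpha and -0.91 for beta cell markers.

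Crabp1 and Crabp2, which bind retinoic acid in the cytoplasm, were too scarce to pass the filter on low counts. Crabp1 had 4, 3, 2 and 13 counts in mutants 1 to 4, against 0, 5, 3 and 6 counts in controls 1 to 4, 22 in all against 14. The 0 of control 1 allows up to 0.0778 CPM at 3 counts. Crabp2 summed to 33 counts in mutants and 39 counts in controls, at 0.0886 to 0.294 CPM in mutants and 0.0954 to 0.334 CPM in controls. Fitted without the filter, the log2 fold change was 0.71 for Crabp1 (SE 0.94, adjusted p = 0.754, edgeR) and -0.19 for Crabp2 (SE 0.60, adjusted p = 0.908), and no difference was detectable at these counts.

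Cyp26b1, the hydroxylase that clears retinoic acid, had genotype differences of opposite sign in the library sets, as Aldh1a3 did. It had 21.2, 41.9, 5.94 and 46.6 CPM in mutants 1 to 4, against 12.3, 9.05, 46.6 and 15.9 CPM in controls 1 to 4. Mutant 3 was the lowest of all 8 libraries, and mutant 4 and control 3 shared the highest level. Over all 8 libraries the log2 fold change was 0.46 (SE 0.68, adjusted p = 0.768, edgeR). In the 5 smaller libraries the 3 mutants, at 21.2 to 46.6 CPM, lay above the 2 controls, at 12.3 and 15.9 CPM, a 2.60-fold ratio of means with a log2 fold change of 1.37 (SE 0.36, unadjusted p = 0.00922, adjusted p = 0.12, edgeR). DESeq2 on these 5 libraries gave an adjusted p of 0.000924, so that tool called Aldh1a3 and Cyp26b1 there and edgeR called neither. In the 3 larger libraries the log2 difference was -1.78, with mutant 3 at 5.94 CPM and controls 2 and 3 at 9.05 and 46.6 CPM. The interaction was -3.61 (SE 1.21, unadjusted p = 0.0219, adjusted p = 0.101, edgeR), which did not pass. An interaction at an unadjusted p below 0.05 was found for 31.1% of all genes tested. The 2 genes parted in control 2, which was the highest library of Aldh1a3 and the lowest control of Cyp26b1.

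**Figure D4:**
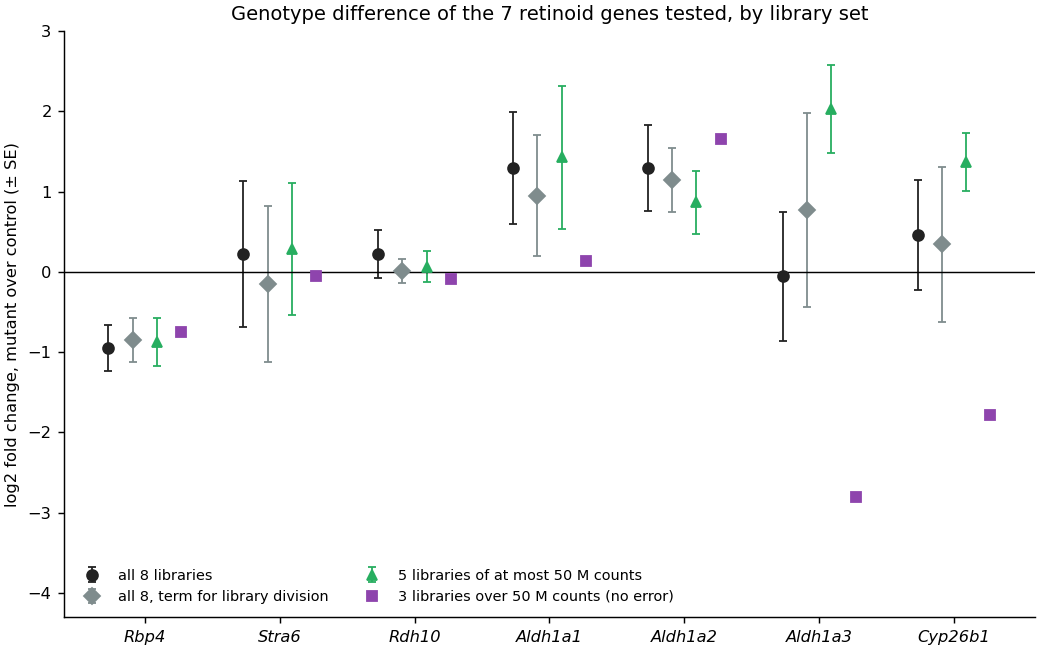
Points give the log2 fold change of mutant over control ± SE for the 7 retinoid genes tested, over all 8 libraries, with a term for the library division, in the 5 libraries of at most 50 M counts, and in the 3 libraries over 50 M counts, where 1 mutant stood against 2 controls and no error was computed. Rbp4 lies between -0.95 and -0.75 in all 4, whereas Aldh1a3 lies at 2.03 in the 5 smaller libraries and -2.81 in the 3 larger ones.

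A further 49 genes of retinoid handling showed no change that passed edgeR's quasi-likelihood test. They were lists of uptake and storage genes, retinol dehydrogenases, other enzymes of acid synthesis and clearance, receptors with their partners, and genes known to be induced by the acid. Of the 49, 37 had enough counts, 0 were called, 3 were higher and 4 were lower at an unadjusted p below 0.05 (8.11% and 10.8%, beside 6.4% and 6.89% of all genes), and their median log2 fold change was 0.20. The receptors lay close to the controls. Among the 11 receptors and partner genes, Rara, Rarb, Rarg, Rxra, Rxrb and Rxrg all missed an unadjusted p of 0.05, although Rxra, at an average of 86.9 CPM in mutants and 75.4 CPM in controls, lay higher in every mutant library. The median log2 fold change of the 11 was -0.023. Rarb, whose promoter carries the best known response element, averaged 1.77 CPM in mutants and 1.45 CPM in controls, with a log2 fold change of 0.29 (SE 0.42). Of the 7 induced genes 3 had enough counts, and Tgm2, a transglutaminase, was the one with an unadjusted p below 0.05. It had 40.4 to 173 CPM in mutants and 17.5 to 77.5 CPM in controls, with a log2 fold change of 1.35 (SE 0.57, adjusted p = 0.368, edgeR). Duct markers were also higher, at 1312 to 3344 CPM in mutants and 683 to 1915 CPM in controls. Their part in the Tgm2 values was not tested. Rarres2, which encodes the secreted protein chemerin, had 5.02, 6.06, 2.01 and 7.85 CPM in mutants 1 to 4, against 2.83, 2.80, 4.18 and 1.72 CPM in controls 1 to 4. As for Aldh1a3, the smaller mutants lay above the smaller controls and mutant 3 below the larger ones. It had a log2 fold change of 0.86 (SE 0.43, adjusted p = 0.404) over all 8 libraries, 1.47 (SE 0.31, adjusted p = 0.0978 by edgeR and 0.000484 by DESeq2) in the 5 smaller, and -0.76 in the 3 larger, with an interaction of -2.27 (adjusted p = 0.053, edgeR). All 13 retinol dehydrogenases tested missed an unadjusted p of 0.05.

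The smallest p-value among the 49 was that of Cyp1b1, a cytochrome that can oxidise retinol and retinaldehyde and is also expressed in stromal cells. It had 2.87, 5.20, 2.87 and 5.05 CPM in mutants 1 to 4, against 0.627 to 1.41 CPM in the controls, with no overlap. The log2 fold change of Cyp1b1 was 1.81 (SE 0.36, adjusted p = 0.256, edgeR), it was called by DESeq2 (adjusted p = 0.000541) and by edgeR's likelihood ratio test (adjusted p = 0.00607, a test that called 0.597% of all genes), and it was 1.79 (SE 0.34) in the 5 smaller libraries alone. Fabp5, a fatty acid binding protein that also carries retinoic acid, had 8.66, 9.34, 6.50 and 10.1 CPM in mutants, against 3.11, 2.12, 1.20 and 6.75 CPM in controls, with a log2 fold change of 1.40 (SE 0.48, adjusted p = 0.353). A separation of all mutants above all controls was seen for 4.4% of all genes tested, and for 2 of these 37, Cyp1b1 and Rxra. The sum of mesenchymal markers was likewise higher in mutants, 937 to 1121 CPM against 400 to 582 CPM in controls, and its part in Cyp1b1 and Fabp5 was not tested. Among mutants Cyp1b1 was highest in mutant 2, where the marker sum was lowest. By the mean log2 level of the same markers mutant 3 was the lowest mutant, at 5.30, beside 5.45 in mutant 2. Among controls Fabp5 was highest in control 4, at a marker sum of 419 CPM against 582 CPM in control 1. Ncoa1, a receptor coactivator, was lower by a small margin in all 4 mutants, 159 to 175 CPM against 188 to 213 CPM in controls, with a log2 fold change of -0.26 (SE 0.093, adjusted p = 0.353). All mutants lay below all controls for 3.8% of all genes tested and for 2 of these 37.

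The lowest fold changes of the list rested on control libraries of the larger set. Rbp7, a retinol carrier of endothelial and fat cells, had 0.0474 to 0.251 CPM in mutants and 0.119 to 0.427 CPM in controls 1, 2 and 4, with control 3 at 4.18 CPM. Its log2 fold change was -3.17 over all 8 libraries (adjusted p = 0.353) and -0.44 without controls 2 and 3 (adjusted p = 0.880). Ttr, the plasma partner of Rbp4 and a gene of alpha cells, had 393, 573, 532 and 478 CPM in mutants 1 to 4, against 432, 1340, 4211 and 534 CPM in controls 1 to 4. The log2 fold change of Ttr was -1.72 (SE 0.67, adjusted p = 0.353) over all 8 libraries and -0.011 (SE 0.18) in the 5 smaller. The interaction of genotype and library set was -2.38 for Ttr (adjusted p = 0.0973, edgeR) and 0.052 for Rbp4 (adjusted p = 0.966), and neither passed.

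**Figure D5:**
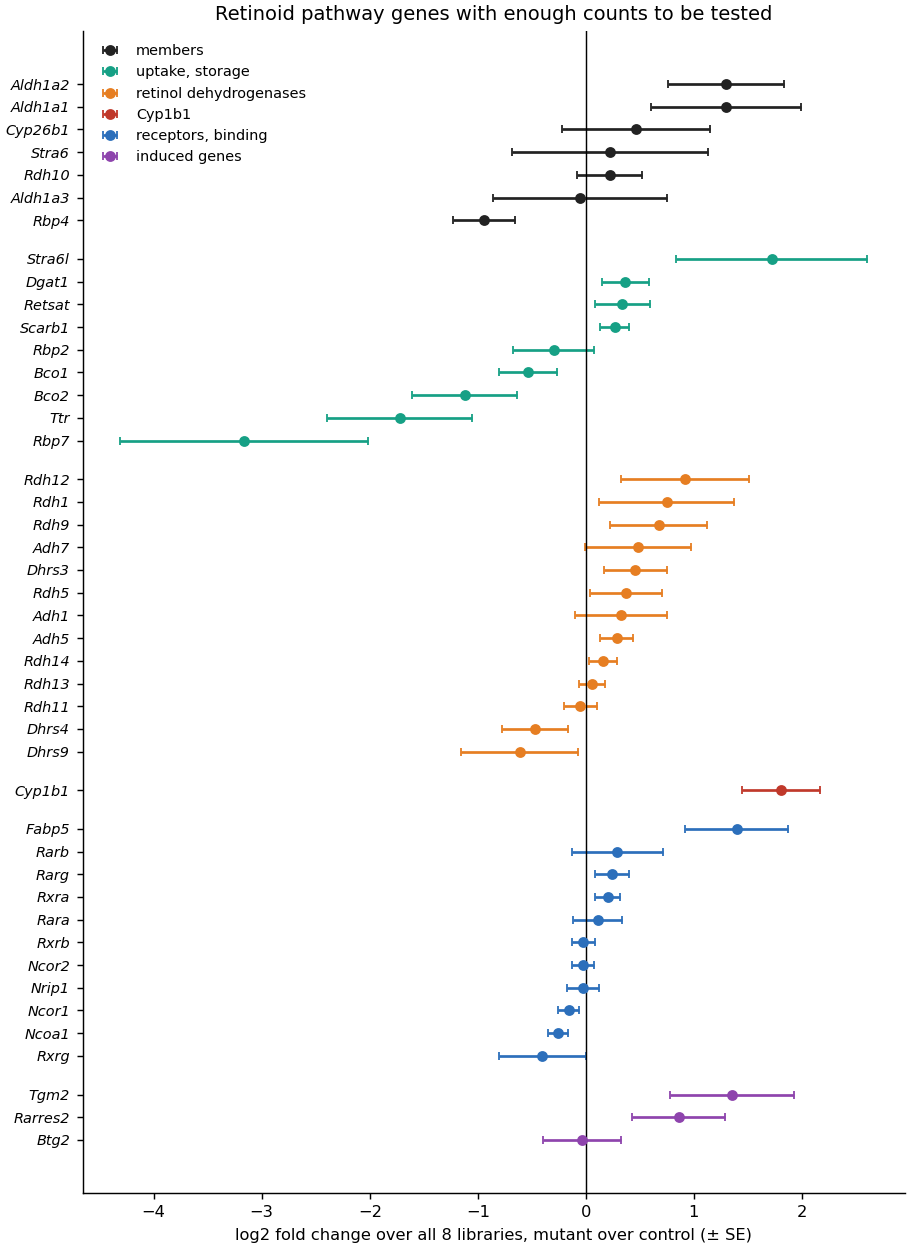
Points give the log2 fold change over all 8 libraries, mutant over control ± SE, for the 7 retinoid genes tested (black, at the top) and the 37 other genes of retinoid handling, in groups by role and sorted within each. Cyp1b1 at 1.81 and Rbp7 at -3.17 are the extremes of the 37, and most receptors lie close to 0.

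Other aldehyde dehydrogenases were compared to see whether the Aldh1a values belonged to the wider family. Of 15 listed, 13 had enough counts, 0 were called, and the median log2 fold change was 0.13. At an unadjusted p below 0.05, 1 was higher and 1 was lower (7.69% each), beside 6.4% and 6.89% of all genes tested. Aldh1l2, a mitochondrial folate enzyme, had 292, 276, 296 and 331 CPM in mutants 1 to 4, against 217, 103, 72.8 and 254 CPM in controls 1 to 4, with no overlap and a log2 fold change of 0.88 (SE 0.36, adjusted p = 0.363, edgeR). All mutants lay above all controls for 4.4% of all genes tested. In the 5 smaller libraries Aldh1l2 stood at 0.34 on the log2 scale (SE 0.11, adjusted p = 0.152). Aldh5a1, which oxidises succinate semialdehyde in the breakdown of GABA, had 35.5, 34.0, 58.0 and 30.6 CPM in mutants 1 to 4, against 56.1, 69.7, 72.4 and 47.3 CPM in controls 1 to 4, with a log2 fold change of -0.63 (SE 0.23, adjusted p = 0.353). Aldh6a1, Aldh7a1 and Aldh16a1 had log2 fold changes of -0.47, 0.23 and 0.46, all with an unadjusted p above 0.05.

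The genes whose levels were most like those of 3 of the retinoid genes were found by Pearson's r of log2 CPM over the 8 libraries, among 13506 genes with a mean of at least 1 CPM. They were Zfp869 (0.974), Clp1 (0.956) and Ube2z (0.955) for Aldh1a3, Fgf14 (0.974), Pcdh15 (0.951) and Syne1 (0.951) for Rbp4, and Higd1a (0.968), Jarid2 (0.967) and Etnk1 (0.965) for Cyp26b1. With 8 libraries and so many genes such values are the top of a long ranking, and the libraries share their depth, their set and their cell make-up. The mean level of Pcdh15 was 11.8 CPM in mutants and 37.7 CPM in controls, and that of Zfp869 was 91.3 CPM in mutants and 92.1 CPM in controls.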

How the data were processed

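RNA-seq of 8 islet libraries was analysed from the table of read counts deposited by the authors. Per the study's methods and labels, the authors trimmed 50-base single-end reads, mapped these to GRCm38 (STAR) and assigned the alignments to genes (featureCounts, default settings), which drops reads that map to several places and does not use strand. The deposited counts are whole numbers and not normalized. The gene length in kilobases stood beside them in the same table and served only for RPKM. A second table held the authors' own fold changes and p-values and was not used. Tested genes passed edgeR's filter on low counts by group (15233 of 24091). TMM-scaled counts were fitted with edgeR 4.0.16 (glmQLFit, genotype alone, since the batches that the study's methods correct for are not assigned to libraries in the sources used here) in R 4.3.3, with Benjamini-Hochberg adjustment over all genes tested. Alternatives were DESeq2 1.42.0, likelihood ratio, RLE and total-count scaling, no filter or a strict filter (CPM of at least 1 in 4 libraries), a replicate block, a term for libraries over 50 M counts, each library set alone, and each library left out. Chosen after seeing the data were the fit without controls 2 and 3 and DESeq2 by library set. Exact permutation tests were two-sided, on log2 values. Means are given ± SD over libraries. Scripts were tested on simulated data. The replicate numbers are the submitters' own. No pair of libraries was alike within sampling noise. In the symbol column, 26 symbols had been turned into dates and 2 occurred more than once, none of them a gene named here. Named genes were the 9 members, Itgb1, Aldh1a7, Ttr, the 5 genes of smallest p in the pathway lists and in the aldehyde dehydrogenase list, and the 3 most alike genes of Aldh1a3, Rbp4 and Cyp26b1. Tgm2, Rarres2, Rarb, the other receptors and the single marker genes were named after their values were seen. The members and lists were chosen with earlier results of these data known. One gene of the lists is not reported here.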

Additional observations from a re-analysis of the deposited data

Results flagged for a closer look

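A total of 2 values stood far from the other libraries of their genotype by Dixon's test, which by chance marks about 1 group in 20, and 42 groups were checked, so 2 is about the number that chance gives. Rbp7 was 4.18 CPM in control 3, with the next control at 0.427 CPM. Aldh1a7 was 0.646 CPM in control 3, with the next control at 0.143 CPM. In addition, 2 genotype differences ran in opposite directions in the library sets, with the 3 smaller mutants above the 2 smaller controls and mutant 3 below the 2 larger controls. The interaction was -4.94 on the log2 scale for Aldh1a3 (adjusted p = 0.0349, edgeR) and -3.61 for Cyp26b1 (adjusted p = 0.101, edgeR). The adjusted p passed 0.05 for 10.9% of all genes tested, and mutant 3 was the one mutant library in the larger set.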

How the results depend on the processing

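Under edgeR no retinoid gene was called at any filter or scaling tried or with any 1 library left out, and Rbp4 kept its direction in all 21 alternatives, from -1.08 to -0.70 with 1 library left out. The number of retinoid genes called was 2 with DESeq2 in the 5 smaller libraries (Aldh1a3 and Cyp26b1). Among the 49 other pathway genes it was 1 with DESeq2 and 1 with the likelihood ratio test (Cyp1b1), 2 with DESeq2 and the division term (Cyp1b1 and Fabp5), and 2 with DESeq2 in the 5 smaller libraries (Cyp1b1 and Rarres2). Over all genes it was 187 with DESeq2, 91 with the likelihood ratio test, 4 with the division term, 10 in the 5 smaller libraries, 252 with DESeq2 and the division term, and 383 with DESeq2 in the 5 smaller libraries. The log2 fold change of Aldh1a3 turned positive with total counts (0.22), the division term (0.77, or 0.81 by DESeq2), the 5 smaller libraries (2.03, or 2.04 by DESeq2) and without controls 2 and 3 (1.70), and ran from -0.56 to 0.73 with 1 library left out. Total counts moved the median of all genes by 0.15. Rdh10 became -0.12 without controls 2 and 3 and -0.094 in the 3 larger libraries. Stra6 became -0.15 with the division term (-0.17 by DESeq2), -0.011 without controls 2 and 3 and -0.051 in the 3 larger libraries, and ran from -0.18 to 0.88 with 1 library left out. Cyp26b1 became -1.78 in the 3 larger libraries and ran from 0.13 to 1.22 with 1 library left out, 1.22 being the value without control 3. Adjusted p-values ranged from 0.0486 to 0.643 for Rbp4 and from 0.134 to 0.715 for Aldh1a2. The cause of these shifts was not tested. Whether the replicate numbers pair the samples was not settled. Same-numbered libraries deviated together in replicates 1, 3 and 4 (r = 0.423, 0.457 and 0.254 across genes) but not in replicate 2 (-0.0127). For mutants 1, 3 and 4 the same-numbered control gave the highest r of the controls. With the replicate block Aldh1a3 was 0.26 and the number of genes called was 0. The adjusted p by edgeR with this block was 0.126 for Rbp4 and 0.169 for Aldh1a2. Crabp1 and Crabp2 did not pass the filter on low counts over all 8 libraries.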
